A study of Mus musculus with 39 samples.

Results

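Sirt1 to Sirt7 encode the sirtuins, protein deacylases that use nicotinamide adenine dinucleotide (NAD) as a cosubstrate. Probes were taken as theirs where the accession printed beside the probe in the scanner files belongs to one of these genes in the RefSeq mouse annotation, which gave 7 genes and 11 probes among 18905 named genes and 41174 probes. The study asked how trichostatin A (TSA) and Spi-C mRNA alter gene expression in mouse embryos made by somatic cell nuclear transfer (SCNT). All groups were of the strain (B6xDBA/2)F1 and each array held RNA of 1 pool. The groups were metaphase II oocytes (OC, 7 arrays of 10 oocytes), in vitro fertilised 2-cell embryos (IVF, 6 arrays), SCNT 2-cell embryos with cumulus cell nuclei without TSA (TSA(–), 8 arrays) or with 5 nM TSA for 8 h from activation (TSA(+), 6 arrays), SCNT embryos injected at the pronuclear stage with Spi-C mRNA at 1.0 or 0.1 mg/ml (Spi-C NT, 4 arrays each), and donor cumulus cells (Cumulus, 4 arrays of 500 cells). Each embryo array held 10 embryos after 24 h of culture. The labels call the arrays biological replicates without naming separate animals, so the p-values measure the spread between these pools.

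Sirtuins remove acetyl or longer acyl groups from lysines and consume NAD in the reaction. SIRT1, SIRT6 and SIRT7 are mainly nuclear and act on histones and transcription factors, SIRT2 is mainly cytosolic and deacetylates tubulin, and SIRT3, SIRT4 and SIRT5 reside in mitochondria. TSA inhibits the zinc-dependent histone deacetylases, encoded by Hdac genes, and does not block the NAD-dependent catalysis of sirtuins. Oocytes hold a store of maternal transcripts, much of which is degraded by the 2-cell stage while the embryo's own genome becomes active.

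Levels below are the log2 of the background-subtracted, spatially corrected signal of a probe minus the log2 of the 75th percentile of all probes on that array, so that 0 is the array's 75th percentile. A level is read across arrays for 1 probe and never between probes. Differences are between group means of these levels, with the standard error (SE) of limma and p-values adjusted by Benjamini and Hochberg over the 39517 probes tested, and a probe is called at an adjusted p under 0.01. All 11 sirtuin probes passed the filter on dim probes. In pooled samples, fewer cells that express a gene and less RNA in each cell cannot be told apart. The 75th percentile signal was 279 to 527 on OC arrays and 1029 to 1406 on IVF arrays, and 48.6 to 59.6% of OC probes and 69.6 to 76.3% of IVF probes were well above background. The part of this signal gap in the OC comparisons was not tested. All 8 oocyte markers were well above background on every OC array, with a summed linear level of 3906 to 6892, against 1.03 to 1.97 on Cumulus arrays, where 3 were not well above background on any array. The 9 cumulus markers summed to 339 to 373 on Cumulus arrays and to 0.349 to 3.88 on all the other arrays. The 12 Spi-C NT and Cumulus arrays were read on another scanner model, with a later version of the image software, than the other 27, so that for Spi-C NT and Cumulus the group and the scanner cannot be told apart.

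The promoter stretches of 3 sirtuins are shown because these genes gave the contrasts that follow, Sirt1 and Sirt2 moving in opposite directions from oocyte to embryo and Sirt3 having the only probe whose Spi-C NT and TSA(–) levels did not overlap. They are RefSeq sequences of build GRCm38.p6, read 5′ to 3′ up to the last base before the transcript start and kept only where no annotated gene covers them. Capitals mark GGAA or its reverse complement TTCC, the core that ETS transcription factors such as Spi-C recognise.
Sirt1, chr10:63339036-63339285, minus strand: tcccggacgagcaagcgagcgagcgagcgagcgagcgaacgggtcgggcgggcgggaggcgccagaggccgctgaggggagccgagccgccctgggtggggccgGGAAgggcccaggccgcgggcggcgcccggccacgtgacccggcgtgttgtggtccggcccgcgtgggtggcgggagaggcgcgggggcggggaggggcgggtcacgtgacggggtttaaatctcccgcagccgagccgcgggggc
Sirt2, chr7:28766645-28766751, plus strand: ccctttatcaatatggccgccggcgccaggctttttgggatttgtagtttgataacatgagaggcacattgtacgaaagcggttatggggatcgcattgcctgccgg
Sirt3, chr7:140882310-140882393, minus strand: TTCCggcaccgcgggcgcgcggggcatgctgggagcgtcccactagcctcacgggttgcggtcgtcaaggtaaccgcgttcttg

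The Sirt1 stretch of 250 bases was free of other genes and held 39 CpG dinucleotides, a number reached by 1.56% of the 32851 RefSeq promoter windows of the same length. The Sirt2 stretch covers the 107 bases nearest its start, beyond which the window is covered by the neighbouring gene Nfkbib. The Sirt3 stretch covers the nearest 84 bases, beyond which lies Psmd13, which encodes a proteasome subunit. Over the full windows of 250 bases, all 7 sirtuins matched GGAA on either strand, from 1 match for Sirt1 to 7 for Sirt6, in the first window of each gene. A match was held by 93.4% of all windows, so its presence sets none of these genes apart. The longer GAGGAAG, typical of PU.1 sites, was in none of the 9 sirtuin windows and in 10.6% of all windows, counting both strands and including matches that overlap the shorter core. These letters describe the windows only and were not tied to any measured binding.

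**Figure D1:**
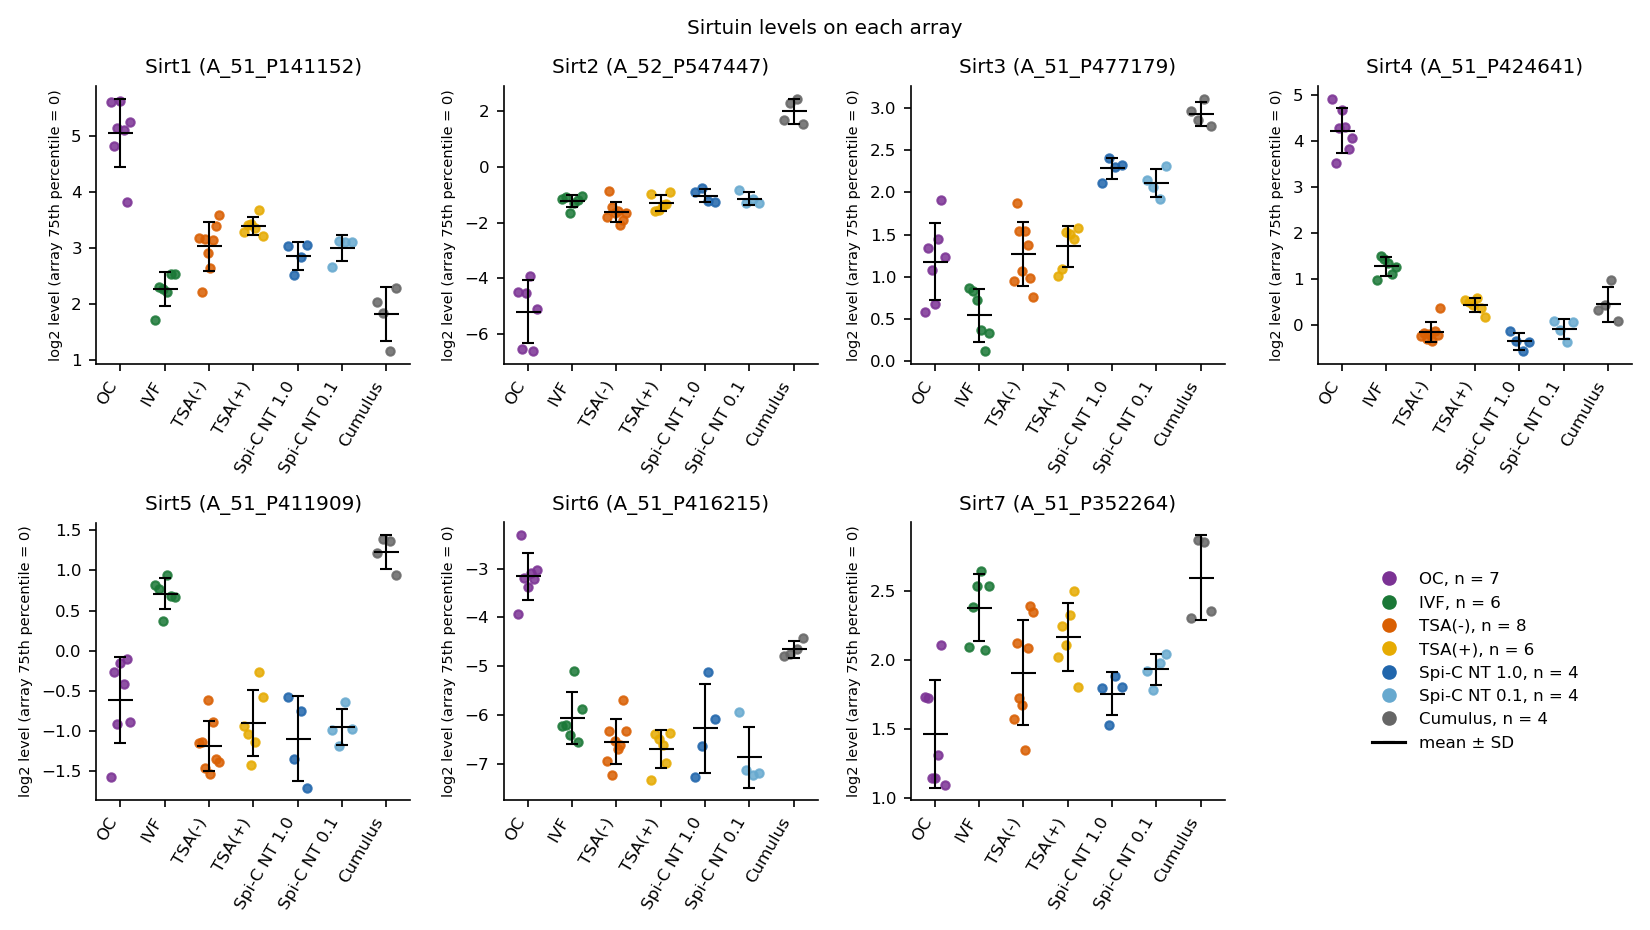
The log2 level of each sirtuin on each array (vertical axes, 0 is the array's 75th percentile) in the 7 groups (horizontal axes), for the probe with the highest mean level of each gene. Points are arrays and black bars are mean ± SD. Sirt1, Sirt4 and Sirt6 are highest in OC, Sirt2 lowest in OC, and Sirt5 lies lower in all SCNT groups than in IVF.

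From oocyte to IVF embryo, all 7 sirtuins changed on at least 1 probe. Sirt1, Sirt4, Sirt6 and Sirt3 fell and Sirt2, Sirt5 and Sirt7 rose. In this comparison 9 of the 11 sirtuin probes were called, 5 higher and 4 lower in IVF. Of all probes tested 66% were called, 23.4% higher and 42.6% lower, so the sirtuin count is read against a background in which most probes differed. The median difference of the sirtuin probes was 0.72 and that of all probes -0.87. This sirtuin median counts genes with several probes more than once and equals the value of A_52_P358612, a Sirt1 probe that was not called. It therefore does not describe a shared direction of the 7 genes. The groups did not overlap for 7 of the 11 sirtuin probes, against 51.8% of all probes.

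Among the nuclear sirtuins, Sirt1 (A_51_P141152), whose product deacetylates p53 and FOXO factors, ran from 3.82 to 5.64 in OC with a median of 5.15. In IVF it ran from 1.72 to 2.55 with a median of 2.30. The groups did not overlap, and the difference of -2.79 (SE 0.24, adjusted p = 2.45e-11) corresponded to a 6.91-fold lower level. It was -1.22 with quantile normalisation and -3.49 with arrays centred on the median, called in both. The dimmer Sirt1 probe A_52_P358612 gave 0.72 (SE 0.38, adjusted p = 0.0909) and was called higher without OC replicate 6 (1.02, adjusted p = 0.00902). Sirt6, which deacetylates histone H3 and acts in DNA repair, lay between -3.93 and -2.31 in OC with a median of -3.20, and between -6.56 and -5.10 in IVF with a median of -6.22. It was 7.49-fold lower in IVF (difference -2.91, SE 0.25, adjusted p = 1.51e-11), although its probe was well above background on only 4 of 6 IVF arrays. With normexp background correction the Sirt6 difference was -1.85, and it was -3.63 with quantile normalisation, called in both. Sirt7, a nucleolar sirtuin, moved the other way, from a median of 1.31 in OC (1.10 to 2.11) to 2.46 in IVF (2.07 to 2.64). The highest OC array lay just above the lowest IVF array. Its 2 probes rose by 0.91 (SE 0.19, adjusted p = 0.000126) and 0.96 (SE 0.19, adjusted p = 6.88e-05). When arrays were instead centred on their median, these differences were 0.21 and 0.26 and were not called (adjusted p = 0.408 and 0.302).

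Sirt2, the tubulin deacetylase, showed the widest rise of the family. Its probe A_52_P547447 ran from -6.61 to -3.92 on the 6 OC arrays with a value, with a median of -4.80, and was well above background on 4 OC arrays. On the IVF arrays it ran from -1.64 to -1.06 with a median of -1.16, with no overlap, a 15.5-fold higher level (difference 3.95, SE 0.33, adjusted p = 1.75e-11). The probe A_51_P110068 was not well above background on any OC array and on all 6 IVF arrays, so that its level was at least 6.54-fold higher in IVF, a bound set by the dimmest probes well above background on each OC array. With normexp background correction, which raises dim signals by an offset of 50, these 2 probes differed by only 1.52 and 0.52, still called (highest adjusted p = 0.00196). The probe A_52_P656024 gave no such change, at -0.20 (SE 0.18, adjusted p = 0.332), and it was called lower, at -0.95 to -0.89, with quantile normalisation, with arrays centred on the median and with normexp background correction.

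Among the mitochondrial sirtuins, Sirt4, whose product represses glutamate dehydrogenase, lay between 3.51 and 4.92 in OC (median 4.28) and between 0.97 and 1.49 in IVF (median 1.30). That was a 7.77-fold lower level with no overlap (difference -2.96, SE 0.18, adjusted p = 9.93e-15), and the difference was -1.69 with quantile normalisation and -3.66 with arrays centred on the median, called in both. Sirt5, a desuccinylase and demalonylase, lay between -1.57 and -0.11 in OC (median -0.41) and between 0.37 and 0.94 in IVF (median 0.73). It was 2.50-fold higher in IVF with no overlap (difference 1.32, SE 0.21, adjusted p = 2.62e-06). With arrays centred on the median the Sirt5 difference was 0.62 and not called (adjusted p = 0.0141). Sirt3, the main mitochondrial deacetylase, had overlapping groups, at 0.58 to 1.91 for OC against 0.12 to 0.87 for IVF, and a difference of -0.64 (SE 0.20, adjusted p = 0.00580). This call was lost without any one of OC replicates 2, 5 or 6 or IVF replicates 4, 5 or 6, with adjusted p-values of 0.0111 to 0.0201, and under quantile normalisation (-0.29, adjusted p = 0.206), while arrays centred on the median gave -1.34. Within the 4 scan days that held both groups, each of the 7 genes kept this direction on its brightest probe.

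**Figure D2:**
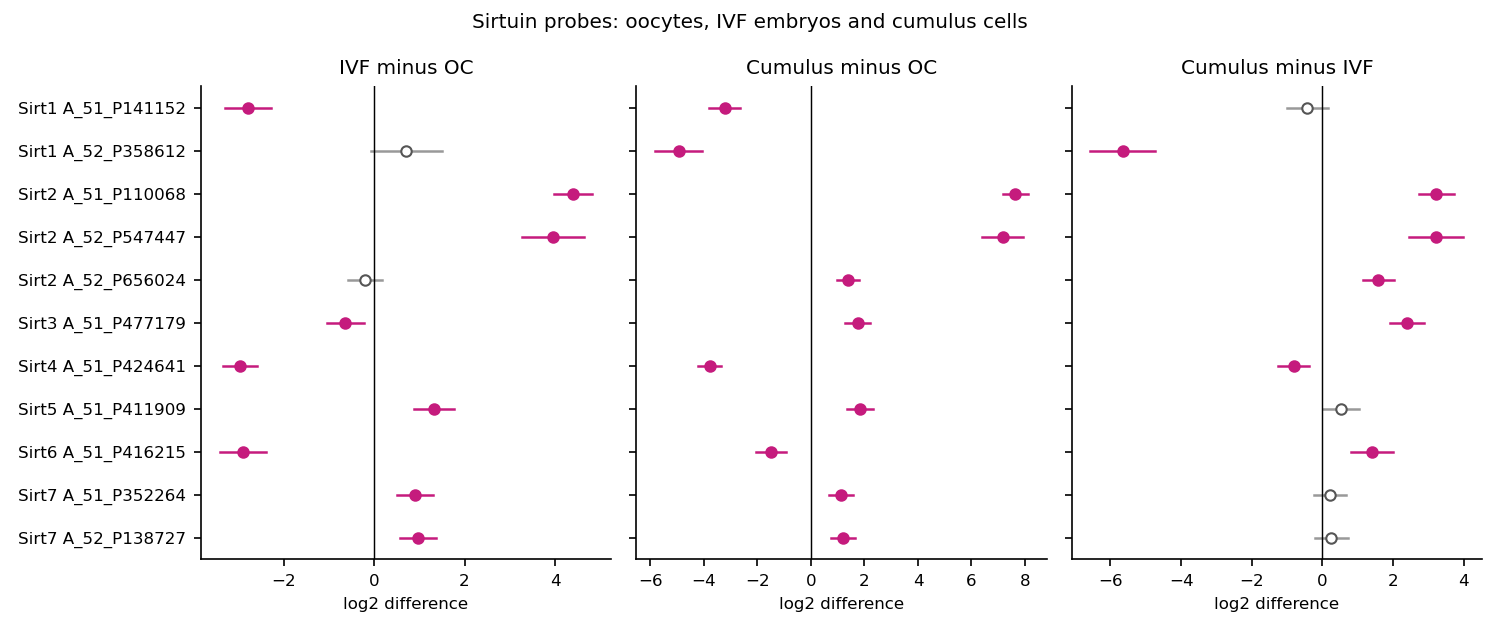
Log2 differences (horizontal axes) of the 11 sirtuin probes (vertical axis) for IVF minus OC, Cumulus minus OC and Cumulus minus IVF. Points are differences of group means, lines their 95% confidence intervals, and filled points probes called at an adjusted p under 0.01. All 11 probes are called for Cumulus minus OC.

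In SCNT embryos without TSA, Sirt5 and Sirt4 were lower and Sirt3 was higher than in IVF embryos, and no probe of Sirt1, Sirt2, Sirt6 or Sirt7 was called. The 3 called probes of 11, 1 higher and 2 lower, compare with 18.7% of all probes, 8.58% higher and 10.2% lower. Sirt5 ran from -1.54 to -0.62 in TSA(–) with a median of -1.24, entirely below the IVF range of 0.37 to 0.94, a 3.72-fold lower level (difference -1.90, SE 0.21, adjusted p = 4.00e-08). Sirt4 ran from -0.35 to 0.37 with a median of -0.21, also entirely below IVF (0.97 to 1.49), a 2.69-fold lower level (difference -1.43, SE 0.18, adjusted p = 4.37e-07). These were the 2 sirtuin probes with no overlap, against 14.8% of all probes. The 5 markers of the 2-cell stage summed to a linear level of 38.7 to 119 in TSA(–) and 168 to 228 in IVF, and their part in these differences was not tested.

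Sirt3 ran from 0.77 to 1.88 in TSA(–) with a median of 1.22, and overlapped the top of the IVF range. Its difference was 0.72 (SE 0.20, adjusted p = 0.00571). Leaving out any one of IVF replicates 4, 5 or 6 or TSA(–) replicates 2, 3, 5 or 6 took it out of the calls, with adjusted p-values of 0.0106 to 0.0213. Sirt1 (A_51_P141152) ran from 2.23 to 3.60 with a median of 3.16 and missed the threshold at a difference of 0.77 (SE 0.24, adjusted p = 0.0150). It was past the threshold under quantile normalisation (0.91, adjusted p = 0.000677), with normexp (0.77, adjusted p = 0.00485), in a fit of all 39 arrays (adjusted p = 0.00735) and without TSA(–) replicate 2 (0.88, adjusted p = 0.00464), so the calls do not separate it from Sirt3. Sirt7 gave -0.47 and -0.50 on its probes (adjusted p = 0.0640 and 0.0467). Within the 4 scan days holding both groups, the difference was -2.07 to -1.82 for Sirt5, -1.55 to -1.16 for Sirt4, 0.59 to 1.00 for Sirt3 and 0.51 to 0.87 for Sirt1.

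In TSA(+) embryos the same comparison with IVF, which uses the same IVF arrays, called 4 of 11 sirtuin probes, 2 higher and 2 lower, against 18.8% of all probes (8.02% higher and 10.8% lower), and these were also the 4 without overlap (20.1% of all probes). Sirt5 ran from -1.43 to -0.27 and was at a 3.04-fold lower level (difference -1.60, SE 0.22, adjusted p = 2.06e-06). Sirt4 ran from 0.17 to 0.58, a difference of -0.84 (SE 0.19, adjusted p = 0.00124), which was -0.60 and not called when arrays were centred on the median (adjusted p = 0.0229). Sirt1 (A_51_P141152) ran from 3.23 to 3.69, all above IVF, a 2.20-fold higher level (difference 1.13, SE 0.25, adjusted p = 0.00104). Sirt3 ran from 1.01 to 1.57 and was higher by 0.82 (SE 0.21, adjusted p = 0.00360), a call lost without IVF replicate 5 (adjusted p = 0.0129) or TSA(+) replicate 6 (adjusted p = 0.0101). Sirt2, Sirt6, Sirt7 and the dimmer Sirt1 probe were not called.

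Between TSA(+) and TSA(–) embryos, no sirtuin probe was called by limma, against 0.144% of all probes (0.0506% higher and 0.0936% lower), and every sirtuin probe overlapped between the groups, as did all but 1.49% of all probes. One of the 11 probes had an unadjusted p under 0.05, that of Sirt4. Its TSA(+) levels of 0.17 to 0.58 (median 0.47) lay above 7 of the 8 TSA(–) arrays and overlapped with the other, at 0.37. The Sirt4 difference was 0.59 (SE 0.18, 95% confidence interval 0.23 to 0.96, unadjusted p = 0.00254, adjusted p = 0.0879). Over all alternatives run, its adjusted p ranged from 0.0121 to 0.152, with a positive difference in each. Within the 3 scan days with both groups, it was 0.42, 0.52 and 0.74. Of the other probes, Sirt1 (A_51_P141152) differed by 0.37 (95% confidence interval -0.12 to 0.85), Sirt5 by 0.29 (-0.13 to 0.71) and Sirt3 by 0.09 (-0.31 to 0.49). The widest intervals were those of the dimmer Sirt1 probe, from -0.72 to 0.80, and of Sirt2 (A_52_P547447), from -0.31 to 0.98.

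**Figure D3:**
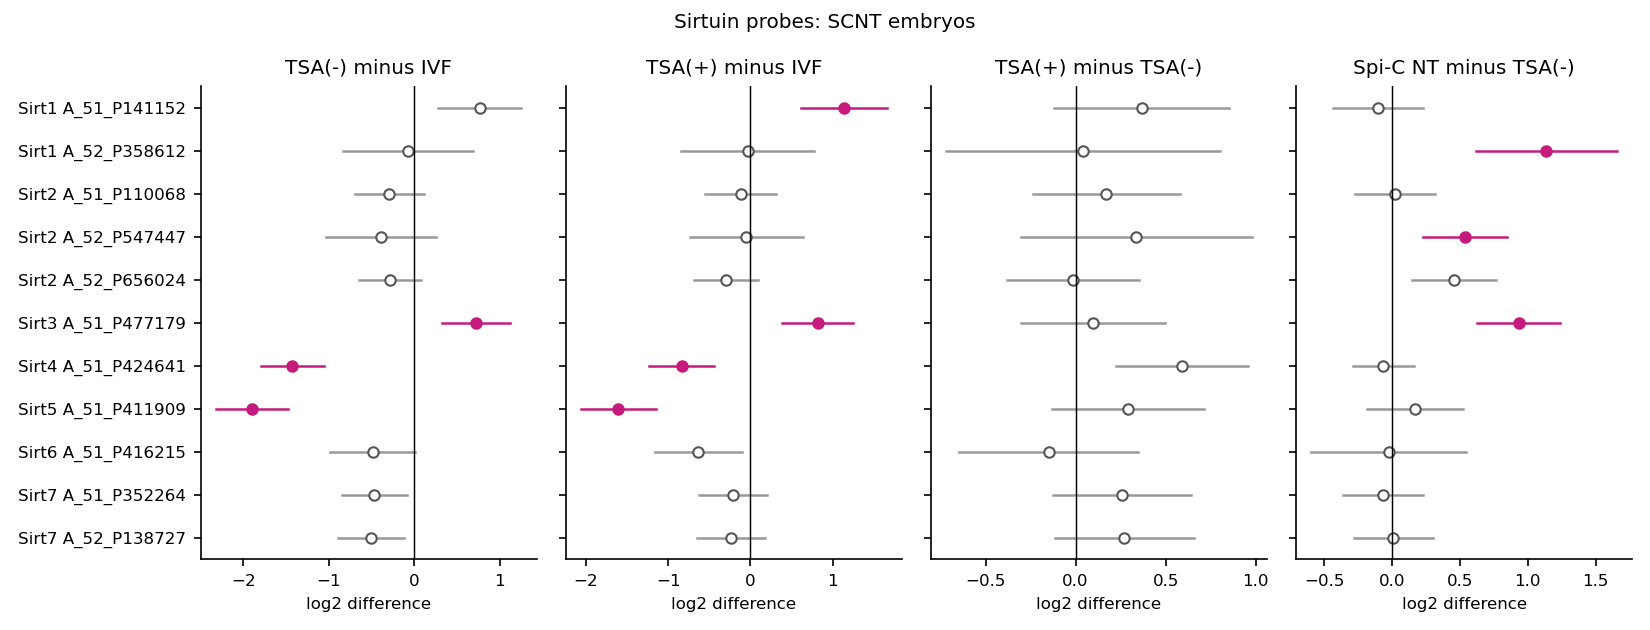
Log2 differences (horizontal axes, each on its own scale) of the 11 sirtuin probes (vertical axis) for TSA(–) minus IVF, TSA(+) minus IVF, TSA(+) minus TSA(–) and Spi-C NT minus TSA(–). Points are differences of group means, lines their 95% confidence intervals, and filled points probes called at an adjusted p under 0.01. No sirtuin probe is called for TSA(+) minus TSA(–), where 0.144% of all probes were called.

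In Spi-C NT embryos, with both doses averaged, 3 of 11 sirtuin probes were higher than in TSA(–) and none lower, against 20.9% of all probes, 12.1% higher and 8.8% lower. Sirt3 gave 2.12, 2.31, 2.32 and 2.41 at 1.0 mg/ml and 1.92, 2.06, 2.15 and 2.31 at 0.1 mg/ml. All 8 lay above the highest TSA(–) array at 1.88, a 1.91-fold higher level (difference 0.93, SE 0.15, adjusted p = 2.63e-05), and Sirt3 was the 1 sirtuin probe of 11 without overlap, against 9.6% of all probes. Sirt2 (A_52_P547447) ran from -1.31 to -0.76 in Spi-C NT and from -2.09 to -0.85 in TSA(–), a difference of 0.54 (SE 0.15, adjusted p = 0.00707). This call was lost in 18 of 30 alternatives. It was not called without any one of 10 arrays, TSA(–) replicates 1, 4, 5, 6, 7 or 8, Spi-C NT 1.0 mg/ml replicates 1 or 2 or 0.1 mg/ml replicates 1 or 3. The call was also lost with arrays centred on the median (0.36, adjusted p = 0.0613) and with normexp (0.40, adjusted p = 0.0112). The same held with the replicate number as a block (0.49, adjusted p = 0.0520) and in a fit of all 39 arrays (adjusted p = 0.141). The dimmer Sirt1 probe A_52_P358612 ran from -2.08 to -0.23 in Spi-C NT and from -3.22 to -1.63 in TSA(–), and was higher by 1.14 (SE 0.25, adjusted p = 0.00104), though not in a fit of all 39 arrays (adjusted p = 0.0112). The brighter Sirt1 probe A_51_P141152 gave -0.10 (SE 0.16, adjusted p = 0.671). The Spi-C NT arrays were read on the other scanner model, and the part of the scanner in these differences cannot be told apart from that of the group.

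Sirt4 and Sirt5 in Spi-C NT embryos stayed near their TSA(–) levels, with differences of -0.07 (95% confidence interval -0.29 to 0.16) and 0.17 (-0.19 to 0.53). Against IVF, 7 of 11 probes were called in Spi-C NT, 3 higher and 4 lower, with 36.1% of all probes called (19.4% higher and 16.7% lower). The groups did not overlap for 4 sirtuin probes, against 24.7% of all probes. Sirt5 was 3.31-fold lower (difference -1.73, SE 0.19, adjusted p = 3.24e-08) and Sirt4 2.82-fold lower (difference -1.49, SE 0.12, adjusted p = 1.52e-10), both without overlap. Sirt3 was 3.15-fold higher, also without overlap (difference 1.65, SE 0.16, adjusted p = 5.29e-09). Both Sirt1 probes were higher, by 0.67 (adjusted p = 0.00255) and 1.06 (adjusted p = 0.00219), the first of which was lost without IVF replicate 1 (adjusted p = 0.0107) and with arrays centred on the median (0.54, adjusted p = 0.0328), and both in a fit of all 39 arrays (adjusted p = 0.0149 and 0.0179). Both Sirt7 probes were lower, at differences of -0.53 (adjusted p = 0.00572) and -0.49 (adjusted p = 0.00980). Neither was called with quantile normalisation (adjusted p = 0.0198 and 0.0311) or in a fit of all 39 arrays (adjusted p = 0.0118 and 0.0195). Leaving out any one of IVF replicates 2, 3, 4 or 6, Spi-C NT 1.0 mg/ml replicate 2 or 0.1 mg/ml replicate 2 took both out of the calls, with adjusted p-values of 0.0107 to 0.0286. The second Sirt7 probe was also lost without any one of the other Spi-C NT replicates, with adjusted p-values of 0.0123 to 0.0188.

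Between the Spi-C mRNA doses of 1.0 and 0.1 mg/ml, no sirtuin probe was called by limma and none had an unadjusted p under 0.05. Only 0.00506% of all probes were called, so that the count says little about the sirtuins. The groups did not overlap for 1 sirtuin probe, A_52_P138727 of Sirt7, against 3.36% of all probes. The differences ran from -0.27 for Sirt4 (95% confidence interval -0.59 to 0.05) to 0.63 for the dimmer Sirt1 probe (-0.10 to 1.36).

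Donor cumulus cells differed from oocytes on all 11 sirtuin probes, 7 higher and 4 lower, against 67.6% of all probes (23.5% higher and 44.1% lower), and no sirtuin probe overlapped between these groups (65.1% of all probes). Sirt2 (A_52_P547447) gave 1.53, 1.69, 2.27 and 2.44 in Cumulus, 7.17 above OC on the log2 scale (SE 0.37, adjusted p = 1.88e-16) or 4.51 with normexp, and its probe A_51_P110068, not well above background in OC, was at least 61.2-fold higher, with a difference of 3.43 under normexp. The probe A_52_P656024 was higher by 1.39 and lost its call under normexp (0.31, adjusted p = 0.0194). Sirt3 gave 2.78, 2.85, 2.96 and 3.11 and was higher by 1.75 (SE 0.23, adjusted p = 5.80e-08). Sirt5 gave 0.94, 1.22, 1.36 and 1.39 and was higher by 1.84 (SE 0.24, adjusted p = 5.86e-08). Sirt7 was higher by 1.13 and 1.21 on its probes.

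Sirt4, Sirt1 and Sirt6 were lower in cumulus cells than in oocytes. Sirt4 gave 0.08, 0.32, 0.42 and 0.98 in Cumulus, a difference from OC of -3.78 (SE 0.21, adjusted p = 2.83e-16), or -2.66 with quantile normalisation. Sirt1 (A_51_P141152) gave 1.16, 1.85, 2.04 and 2.30, a difference of -3.22 (SE 0.28, adjusted p = 9.99e-12), or -1.89 with quantile normalisation, and Sirt6 gave -4.80, -4.75, -4.65 and -4.41, a difference of -1.49 (SE 0.28, adjusted p = 2.43e-05). The dimmer Sirt1 probe was not well above background on any Cumulus array and was at least 11-fold lower there than in OC, with a difference of -2.07 under normexp.

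Against IVF embryos, 7 of 11 probes differed in Cumulus, 5 higher and 2 lower, with 55.2% of all probes called (24% higher and 31.2% lower). The groups did not overlap for 6 sirtuin probes, against 53.8% of all probes. The 3 Sirt2 probes were higher by 1.59 to 3.23, Sirt3 by 2.38 (SE 0.23, adjusted p = 2.90e-10) and Sirt6 by 1.41 (SE 0.29, adjusted p = 9.03e-05). Over the alternatives the Sirt6 difference ran from 0.65 to 2.31, called in each. The dimmer Sirt1 probe, not well above background on any Cumulus array, was at least 18.1-fold lower in Cumulus (adjusted p = 2.22e-12), with a difference of -2.01 under normexp. Sirt4 was lower, at a difference of -0.82 (SE 0.21, adjusted p = 0.00132), a call lost without Cumulus replicate 4 (adjusted p = 0.0102) and turned to 0.0731 when arrays were centred on the median. Sirt1 (A_51_P141152), Sirt5 and Sirt7 differed by -0.44 (adjusted p = 0.188), 0.52 (adjusted p = 0.0675) and 0.22 (adjusted p = 0.416). With arrays centred on the median, Sirt5 and Sirt7 were called higher, at 1.41 and 1.11, and the differences were 2.48 to 4.12 for the Sirt2 probes and 3.27 for Sirt3.

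Ordered over all 7 groups with 1 fit of the 39 arrays, only 14 of the 66 steps between neighbouring groups were past the threshold, counting every sirtuin probe. Between Spi-C NT or Cumulus and any other group, the scanner model also differed, and group and scanner cannot be told apart there. For Sirt1 the order was OC, TSA(+), TSA(–), Spi-C NT 0.1 mg/ml, Spi-C NT 1.0 mg/ml, IVF and Cumulus, with group means from 5.06 to 1.84, and only OC differed from its neighbour. With quantile normalisation TSA(+) and OC shared the top without differing (adjusted p = 0.782), and the steps from Spi-C NT 1.0 mg/ml to IVF (adjusted p = 0.00724) and from IVF to Cumulus (adjusted p = 0.00992) were past the threshold instead. Sirt2 ran from Cumulus (1.98) through the 5 embryo groups, from -1.03 to -1.63, to OC (-5.19), and the embryo groups formed neighbours that did not differ beyond their spread. For Sirt3 the steps from Spi-C NT 0.1 mg/ml to TSA(+) and from OC to IVF were past the threshold. The former is also the step between the scanner models. Cumulus, at 2.93, headed the order without differing from Spi-C NT 1.0 mg/ml at 2.29 (adjusted p = 0.0179). With arrays centred on the median that step was past the threshold (adjusted p = 2.58e-07) and IVF was still lowest, and with quantile normalisation OC was not past the threshold against IVF.

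Sirt4 stood at 4.23 in OC, 1.27 in IVF and 0.45 in Cumulus, with both steps past the threshold and the second subject to the scaling limit given above, and its 4 SCNT groups, at 0.43 to -0.36, formed neighbours with no step past the threshold. TSA(+) and Spi-C NT 1.0 mg/ml, the highest and lowest of them, did differ, by 0.79 (adjusted p = 0.00315). By its neighbouring steps, Sirt5 was placed in 2 blocks, Cumulus (1.23) and IVF (0.71) above OC and the 4 SCNT groups (-0.61 to -1.19). Within the lower block OC and TSA(–) did differ, at -0.57 for TSA(–) minus OC (adjusted p = 0.00942). With arrays centred on the median the step from IVF to OC was not past the threshold (adjusted p = 0.0137), while those from Cumulus to IVF (adjusted p = 1.42e-05) and from OC to TSA(+) (adjusted p = 0.00301) were. Sirt6 stood at -3.16 in OC, -4.65 in Cumulus and -6.06 to -6.88 in all embryo groups, where its probe was well above background on 4 of 6 IVF, 4 of 8 TSA(–), 6 of 6 TSA(+) and 3 of 8 Spi-C NT arrays. Sirt7 had no step past the threshold, from 2.59 in Cumulus to 1.46 in OC. These ends of the order did differ, by 1.13 (adjusted p = 5.15e-06). With arrays centred on the median Cumulus lay above TSA(+) (adjusted p = 0.000172) and OC was not lowest, and with quantile normalisation OC lay below Spi-C NT 1.0 mg/ml (adjusted p = 0.000139).

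Probes of 1 gene did not always move together, which limits what can be said of Sirt1 and Sirt2. Over the 39 arrays, which differ in group and scanner, and leaving out the 1 OC array without a value where A_52_P547447 was used, Pearson's r was 0.99 between the 2 Sirt7 probes and 0.97 between the Sirt2 probes A_52_P547447 and A_51_P110068. It was 0.38 and 0.45 between these and the third Sirt2 probe, A_52_P656024, and 0.21 between the 2 Sirt1 probes. The Sirt1 probes ranked OC differently, as A_51_P141152 was highest there and A_52_P358612, with a mean of -3.02, lay below all embryo groups. The transcript forms each probe meets were not examined here.

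**Figure D4:**
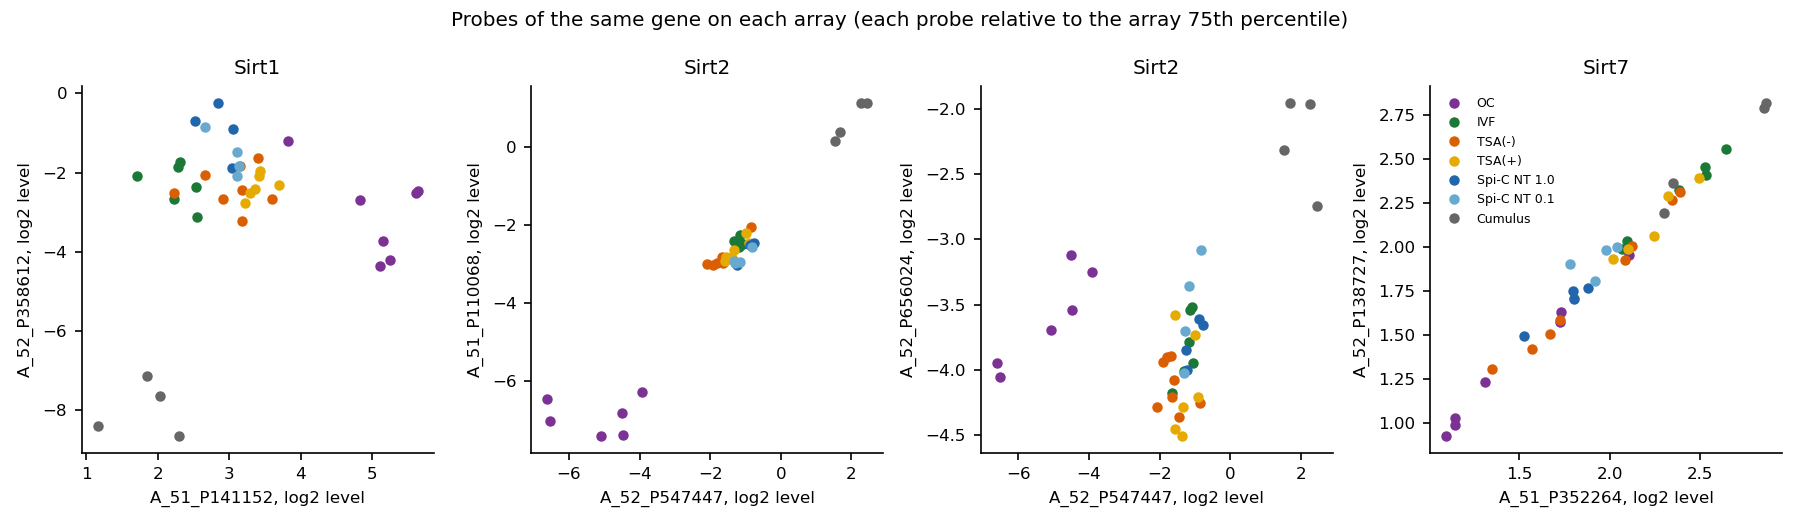
The log2 level of one probe against another probe of the same gene on each of the 39 arrays (both axes, each relative to the array's 75th percentile, without the 1 OC array lacking a value for A_52_P547447), coloured by group. Sirt7 probes lie along a line (r = 0.99), while the Sirt1 probes scatter (r = 0.21).

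Across the 39 arrays, some sirtuins correlated with each other in their levels, as a description without a test, with A_51_P141152 for Sirt1. Sirt4 and Sirt6 correlated at 0.82 and Sirt1 and Sirt4 at 0.73, whereas Sirt1 and Sirt2 correlated at -0.84. Other pairs were looser, with Sirt1 and Sirt6 at 0.52 and Sirt4 and Sirt5 at 0.13, and Sirt3 was closest to Sirt2, at 0.49. The gene most like Sirt1 by Pearson's r among probes well above background on at least 20 arrays was Morc3 (0.98), followed by Zbtb18 (0.96). For Sirt2, without that OC array, these were Pyurf (0.98) and Crtap (0.97), for Sirt4 Rbm14 (0.98) and Med10 (0.98), and for Sirt6 Exosc9 (0.94) and Fbxo7 (0.94). Sirt3 was most like Use1 (0.91) and Uqcc2 (0.88), Sirt5 most like Ndel1 (0.87) and Vps35l (0.87), and Sirt7 most like Ndufb11 (0.86) and Tbcb (0.85). The arrays share groups and scanner, so these values carry the differences between oocytes, embryos and cumulus cells.

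Of 11 genes for the deacetylases that TSA does inhibit, 10 had a probe named through RefSeq, with 14 probes. None of the 14 was called by limma between TSA(+) and TSA(–), where 0.144% of all probes were, so that the count says little about these genes. Their median difference was -0.23, against 0.26 for the sirtuin probes and -0.10 for all probes. These medians count genes with several probes more than once. Between TSA(–) and IVF only Hdac6, a cytoplasmic tubulin deacetylase, was called, at -0.70 (SE 0.20, adjusted p = 0.00812), against 18.7% of all probes. In Spi-C NT against TSA(–), 3 of 14 Hdac probes were lower and none higher (8.8% and 12.1% of all probes), with the scanner difference stated above. Among them were Hdac2 at -1.14 (SE 0.13, adjusted p = 3.29e-07) and Hdac9 on A_52_P411780 at -0.78 (SE 0.17, adjusted p = 0.000878). The Hdac9 probe A_51_P204031 was not called. From OC to IVF, 5 Hdac probes rose and 7 fell (23.4% and 42.6% of all probes), with Hdac5 at 5.17 and Hdac3 at -3.94. The Hdac5 probe was well above background on only 5 OC arrays.

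Of 17 probes for 12 genes of NAD synthesis, 4 were higher and none lower than in IVF in TSA(–), 2 were higher and none lower in TSA(+), and 4 were higher and 3 lower in Spi-C NT. Of all probes, 18.7%, 18.8% and 36.1% were called in these comparisons, so the counts over both directions lay near the background. By direction, 8.58% of all probes were higher and 10.2% lower in TSA(–). These shares were 8.02% and 10.8% in TSA(+) and 19.4% and 16.7% in Spi-C NT. The split of the list by direction was not tested. Nmrk2, a nicotinamide riboside kinase, was higher by 1.66 in TSA(–) (SE 0.32, adjusted p = 0.000222) and by 2.42 in TSA(+) (SE 0.35, adjusted p = 3.69e-06), and Nmnat3, which completes NAD in mitochondria, by 2.46 (SE 0.59, adjusted p = 0.00204) and 2.51 (SE 0.63, adjusted p = 0.00309). In Spi-C NT against TSA(–), 1 of the 17 probes was higher and 2 were lower, against 12.1% and 8.8% of all probes, with the scanner difference stated above. Qprt was higher by 0.88 (SE 0.25, adjusted p = 0.00810). Nampt, the rate-limiting enzyme of NAD salvage, was lower, at -0.93 (SE 0.16, adjusted p = 6.36e-05).

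Among 12 probes for 9 other NAD users, 3 were higher and none lower in TSA(–) than in IVF (8.58% and 10.2% of all probes). In TSA(+) against IVF, 2 were higher and 1 lower (8.02% and 10.8% of all probes), the latter Parp3 at -1.42 (SE 0.36, adjusted p = 0.00374). Parp2, a DNA damage sensor that spends NAD on ADP-ribose, was higher in TSA(–) than in IVF by 1.32 (SE 0.34, adjusted p = 0.00363). From OC to IVF, 4 of these 12 probes rose and 4 fell (23.4% and 42.6% of all probes). Parp2 rose by 4.99 on A_51_P471630 (SE 0.35, adjusted p = 1.41e-13), a probe well above background on only 4 OC arrays, so dim signal limits the size of this rise. Of the genes known to regulate SIRT1, 9 of 12 probes fell and 2 rose from OC to IVF, where 42.6% of all probes fell and 23.4% rose, with E2f1, a cell cycle transcription factor, at -3.16 (SE 0.27, adjusted p = 9.02e-12). In TSA(–) against IVF, 1 of these 12 probes was higher and 1 lower (8.58% and 10.2% of all probes). Hic1, a transcriptional repressor of Sirt1, was lower, at -1.52 (SE 0.28, adjusted p = 0.000110). Rps19bp1, which encodes a SIRT1 activator, was higher by 0.53 on A_52_P474797 (SE 0.14, adjusted p = 0.00470), while its probe A_51_P176505 was not called.

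Of the 18 probes for nuclear sirtuin targets, 2 were higher and 1 lower in TSA(–) than in IVF, a share near the 18.7% of all probes called. Kat2b, an acetyltransferase, was higher by 2.56 (SE 0.29, adjusted p = 8.93e-08) and Foxo3, a stress response transcription factor, lower, at -1.04 (SE 0.29, adjusted p = 0.00626). In Spi-C NT against TSA(–) 5 of 18 were higher and none lower (12.1% and 8.8% of all probes), with 1 Trp53 probe at 2.17 (SE 0.09, adjusted p = 4.25e-15). Of the 13 probes for mitochondrial sirtuin targets, only Ndufa9, a complex I subunit, was called in TSA(–) against IVF, at 0.71 (SE 0.17, adjusted p = 0.00225), against 18.7% of all probes. Glud1, the glutamate dehydrogenase that SIRT4 modifies, was lower in Spi-C NT than in IVF, at -0.70 (SE 0.12, adjusted p = 4.63e-05). No probe of any of these lists was called between TSA(+) and TSA(–), where 0.144% of all probes were, so that these counts say little about the lists.

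**Figure D5:**
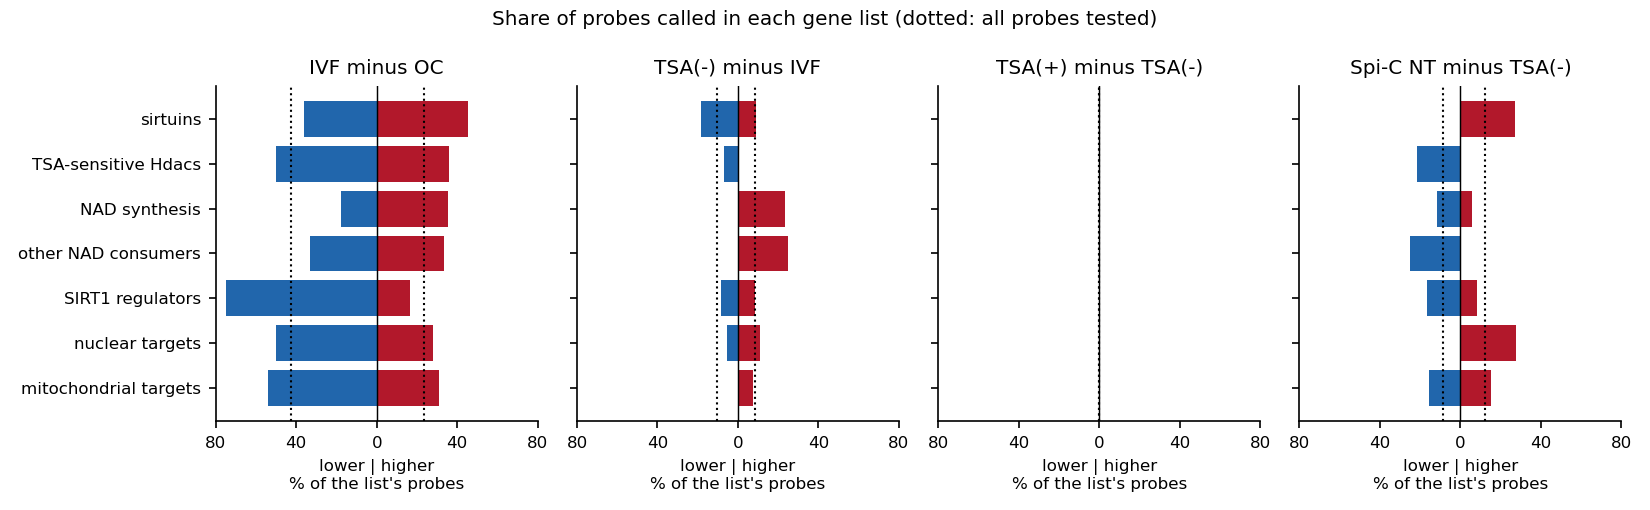
Percent of each gene list's probes that were called lower (left) or higher (right) in 4 comparisons (horizontal axes), for the sirtuins, the TSA-sensitive Hdacs, NAD synthesis, other NAD users, SIRT1 regulators and sirtuin targets (vertical axis). Dotted lines give the share of all probes tested in each direction. No list has a called probe for TSA(+) minus TSA(–), where 0.144% of all probes were called.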

How the data were processed

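Amplified Cy3-labelled RNA was hybridised to Agilent Whole Mouse Genome 4 x 44K arrays. Per the file headers, the deposited scanner files hold signal intensity values processed by Agilent Feature Extraction 9.5.3.1 on 27 arrays and 10.5.1.1 on 12, and deposited 0 or 1 marks (other values) for saturated spots and those well above background. The authors also deposited normalised log2 values in a value table, used as an alternative. Its values lay a median of 0.0148 from log2 levels centred on each probe, its column medians ran from -0.30 to 1.08, and neither its centring nor its scaling is stated in the sources used here.

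Spots of a probe were averaged, outlier spots left out (1820 missing values), and log2 intensity minus each array's log2 75th percentile was tested with limma 3.58.1 in R 4.3.3 (statmod 1.5.0). Probes under an intensity of 10 on every IVF and SCNT array were dropped. One fit held OC, IVF, TSA(–), TSA(+) and Cumulus and another IVF, TSA(–), TSA(+) and the Spi-C NT doses. A fit of all 39 arrays gave the order of groups. Gene names came from RefSeq for 27861 of 41174 probes. The Sirt4 probe was named from the accession in the 12 later files. Hdac1, Nmnat1, Haao and Cps1 were not named on any probe. The sirtuins and all gene lists were chosen with earlier results of these data known. All sirtuin probes are named, the probe with the highest mean level stands for a gene in the order and likeness, and from each other list the largest called changes in each direction were eligible.

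No 2 arrays correlated above 0.974. Replicate numbers did not pair samples, as same-numbered arrays of different groups correlated at -0.0875 to 0.151 in their deviations. Other scalings, background correction, filters, fits, thresholds, slide, scan day and replicate blocks and leaving out each array were tried, and the scripts were tested on simulated data. The number of arrays limits the precision. Figures were drawn with matplotlib.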

Additional observations from a re-analysis of the deposited data

Results flagged for a closer look

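In 5 of 77 groups of sirtuin levels, 1 array stood apart from the rest by Dixon's ratio. Chance alone flags about 1 group in 20. Spi-C NT 0.1 mg/ml replicate 1 accounted for 3 of the 5, with the lowest Sirt1 level (2.66), the highest Sirt2 level on A_51_P110068 (-2.57) and the highest Sirt6 level (-5.94). TSA(–) replicate 8 had the highest Sirt4 level of its group (0.37) and TSA(–) replicate 2 the highest Sirt2 level on A_51_P110068 (-2.06).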

How the results depend on the processing

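Under the alternatives run, single sirtuin differences stayed on their side of the threshold in 2512 cases, lost the call in 87 and gained it in 18, and 1 called difference turned its sign, Sirt4 in Cumulus against IVF (0.0731 with arrays centred on the median). Differences that were not called changed sign under some alternatives, among them Sirt1 (A_52_P358612) for IVF minus OC, at -0.0608 with normexp. The count of called probes between TSA(–) and IVF went from 3 to 5 with normexp and to 5 at an adjusted p under 0.05. A minimum change of 2-fold left 2 of 4 calls for TSA(+) against IVF, 1 of 3 for Spi-C NT against TSA(–) and 4 of 7 for Spi-C NT against IVF. A fit of all 39 arrays left 1 and 3 for the last 2 comparisons. The causes of these changes, beyond the thresholds themselves, were not tested. Leaving out 1 array gave 8 to 9 calls for IVF against OC, 2 to 3 for TSA(–) against IVF, 3 to 4 for TSA(+) against IVF, 11 for Cumulus against OC, 6 to 7 for Cumulus against IVF, 2 to 4 for Spi-C NT against TSA(–), 5 to 7 for Spi-C NT against IVF, and 0 both for TSA and for the Spi-C dose. With the replicate number as a block, which does not pair these samples, 2 sirtuin probes were called for Spi-C NT against TSA(–), and over all probes 5302 instead of 8274. The other counts of sirtuin probes did not move under this block. Another scaling moved the median of all probes for IVF minus OC between -1.58 and -0.29. Dim signal limits Sirt6 in embryos and Sirt2 in oocytes.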
